A study of Homo sapiens with 6 samples.

Results

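The ribosomal protein genes were the 53 genes of a pooled CRISPR knockout screen whose symbol begins with RPL or RPS followed by a number, with kinases of the RPS6K family left out. They were picked by name out of 7093 genes and were targeted by 540 of 71626 guides. The name rule was set with earlier results of these data known. The large subunit was represented by 28 genes with 290 guides and the small subunit by 25 genes with 250 guides. The screen used HAP1 cells, an established human line that descends from chronic myeloid leukaemia and carries nearly 1 set of chromosomes. It compared parental cells with cells of 1 SETD2-mutant genotype. SETD2 encodes the methyltransferase that places the third methyl group on lysine 36 of histone H3. Every group (guide library, parental, SETD2-mutant) had 2 samples. Each line was infected at a multiplicity of infection of 0.7, then divided into replicates and kept under puromycin for 12 doublings. Neither the number of mutant clones nor the way the library samples were taken is given in the labels. Because the replicates of a line came from 1 infection, the spread among these samples may be technical. P-values of guides, gene means and gene sums cover just that spread. Gene p-values from rank aggregation compare the ranks of a gene's guides with random draws. They measure agreement among guides, which are not replicates of a condition.

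Cytosolic ribosomal proteins are the protein part of the machine that translates messenger RNA. The small subunit binds the messenger RNA and holds the site where codons are read, and the large subunit joins the amino acids and holds the tunnel through which the new chain leaves. Most ribosomal proteins have a single expressed gene, and dividing cells depend on nearly all of them, so guides against these genes serve widely as a reference for loss of fitness. A few have a close copy, among them RPL39L, a copy of RPL39 known for its expression in testis, and RPS27L, a copy of RPS27. In this table no such pair had both copies measured: RPL39 and RPS27 were not analysed here.

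All 540 guides passed the filter of a mean library count of 30, and all 53 genes were tested. Of the genes, 51 had 10 guides, RPL38 had 6 and RPL39L had 24. Total counts lay between 34003792 and 38428425 for library and parental samples, and SETD2-mutant replicates 1 and 2 had 25082426 and 33878004. The median ribosomal guide had 439 and 392 counts in the library, then 47.5 and 40 in the parental and 23.5 and 29.5 in the mutant replicates. No ribosomal guide was at 0 in the library, where the lowest count was 89. Guides at 0 numbered 18 and 26 in parental replicates 1 and 2 and 58 and 24 in the mutant replicates, so the deepest losses were read from few counts. SETD2 itself checked the labels. Its guides were depleted in parental cells (log2 change −1.12, adjusted p = 0.000274 by edgeR and rank aggregation) but were not called in SETD2-mutant cells (−0.61, adjusted p = 0.738). The direct comparison of the lines called them enriched in SETD2-mutant cells (0.50, adjusted p = 0.00575 by the same test).

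Many ribosomal protein messenger RNAs begin with a run of pyrimidines at the 5′ end, the feature through which mTOR signalling is known to control their translation. RefSeq promoter entries (GRCh38.p14) were found for 41 of the 53 genes. A run of at least 8 C or T that overlapped the stretch from 10 bases before to 15 bases after a listed start was present in 33 of them (80.5%), against 20.2% of the 27305 genes in the table. On the opposite strand the shares were 4.88% and 17.6%. The windows below run 5′ to 3′ over 30 bases around a listed start, with the run in capitals. They were picked for genes that differ most in the screen: RPL37A, RPL34, RPS6 and RPS24 hold a run, and RPL32, RPS4X and RPS27L hold none at these starts.
RPL37A, chr2:216498829-216498858, plus strand: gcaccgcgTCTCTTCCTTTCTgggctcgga
RPL34, chr4:108620561-108620590, plus strand: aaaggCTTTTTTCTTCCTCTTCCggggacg
RPS6, chr9:19380222-19380251, minus strand: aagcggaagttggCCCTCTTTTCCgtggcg
RPS24, chr10:78033848-78033877, plus strand: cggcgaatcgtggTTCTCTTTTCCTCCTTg
RPL32, chr3:12841551-12841580, minus strand: gggttacgacccatcagcccttgcgcgcca
RPS4X, chrX:72277234-72277263, minus strand: gcagtctccagccccaatttctacgcgcac
RPS27L, chr15:63157463-63157492, minus strand: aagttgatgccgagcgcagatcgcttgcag
The run depends on the start listed: RPL11 and RPL13 held it at a listed start and lacked it at another. Genes with and without a run at the starts shown stood at both ends of the screen. RPS24, with a run, and RPS27L, without one there, were both among the 3 least depleted genes. RPS6, with a run, and RPS4X, without one there, were among the 4 most depleted in parental cells. This is a description of single genes and was not tested.

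The first comparison asked which of these genes parental cells lost from the library over the screen. Nearly all of them were lost. Of the 53 genes, 51 were called depleted and 0 enriched, against 9.9% and 1.1% of all 7090 genes tested. A gene was called at an adjusted p under 0.05, from edgeR's quasi-likelihood test per guide and rank aggregation over guides, and its change is the mean over guides of the log2 fold change. The median change of the ribosomal genes was −3.53, a fall of 11.6-fold, beside −0.02 over all genes. The 43 measured genes of a list of other essential genes (replication, splicing, proteasome, polymerase and the like) had a median of −2.68, and all 43 were depleted. Single guides gave the same picture: 479 of the 540 (88.7%) were called down, against 21.2% of all guides, and 12 were called up, against 18.9%.

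In SETD2-mutant cells the loss was as broad. Of the 53 genes, 50 were depleted and 0 enriched, against 9.06% and 1.13% of all genes. The median change was −4.08, a fall of 16.9-fold, beside −0.05 over all genes and −2.91 over the other essential genes. Again 479 guides were called down, against 23.8% of all guides, and 10 were called up, against 22.1%. With a rank share limit of 0.1 or scaling on guides labelled dummyguide, RPL13 (adjusted p = 0.371 and 0.336), RPL37A (0.286 and 0.175) and RPS9 (0.0519 and 0.169) were no longer called by edgeR and rank aggregation in this line. In parental cells RPL13 was not called with dummyguide scaling (0.0980). The comparisons of both lines share the library samples, so they are not independent of each other. A log2 CPM with a prior count of 2 pulls guides without counts less far down. On that scale the median member changed by −3.36 and −3.50 in the parental and by −3.998 and −3.94 in the mutant replicates.

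**Figure D1:**
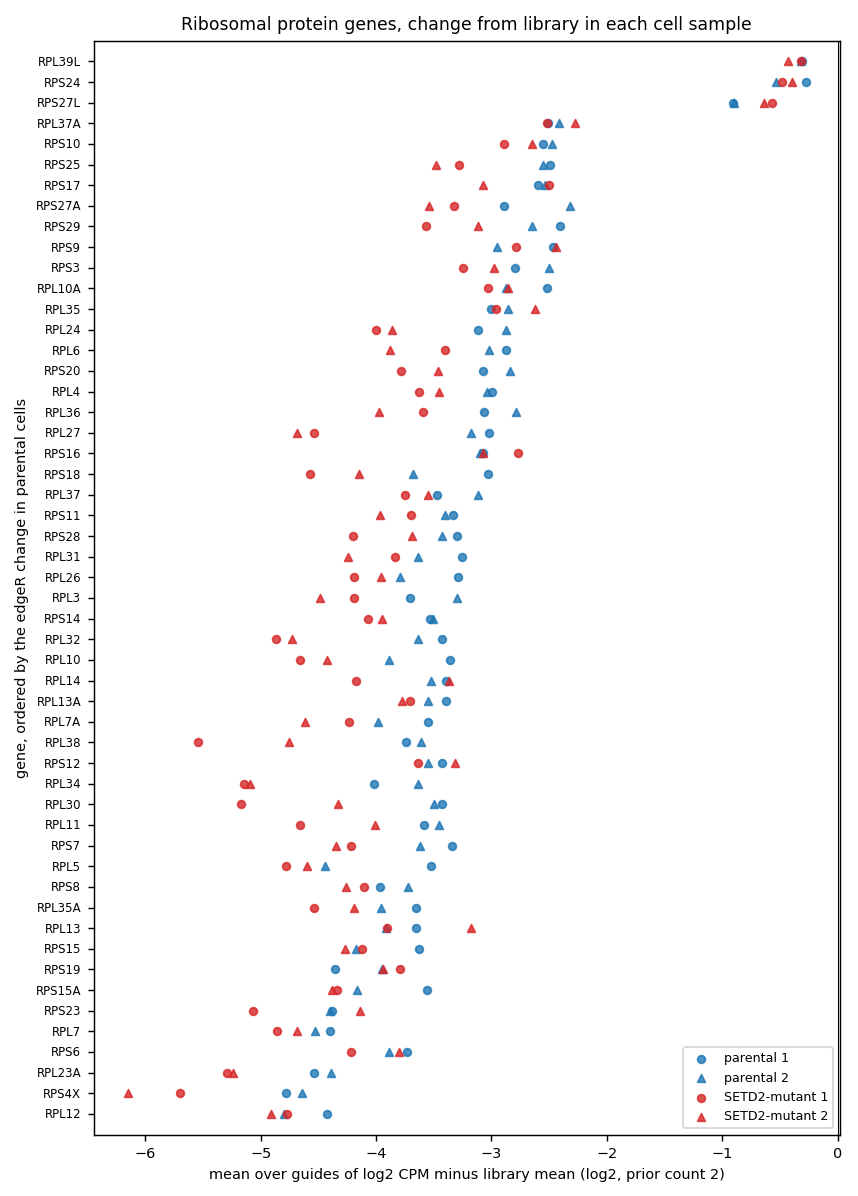
Change of 52 ribosomal protein genes from the library mean in the 4 cell samples (x axis, mean over guides of log2 CPM with a prior count of 2; y axis, genes ordered by their edgeR change in parental cells). Blue marks are parental and red marks SETD2-mutant samples, with circles for replicate 1 and triangles for replicate 2. RPL39L, RPS24 and RPS27L stand near 0 and the other genes drawn lie far below.

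The genes with the deepest loss in parental cells came from both subunits. RPL12, at the base of the stalk that recruits translation factors, had a mean log2 CPM over its 10 guides of 3.49 and 3.44 in the library, then −0.96 and −1.33 in the parental and −1.31 and −1.44 in the mutant replicates. Its edgeR change was −5.04 (SE 0.931 over guides) in parental cells. RPS4X, encoded on the X chromosome, went from 3.54 and 3.51 in the library to −1.25 and −1.12 in the parental and −2.18 and −2.63 in the mutant replicates. Its change of −6.72 (SE 0.620) in SETD2-mutant cells was the lowest of all 7090 genes there. RPL23A, which lies at the exit of the peptide tunnel, went from 3.28 and 3.32 to −1.24 and −1.09 in the parental and −1.99 and −1.94 in the mutant replicates. All cell samples of these 3 genes lay below the library samples.

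RPS6, the substrate of the S6 kinases, RPL7 and RPS23, which reaches into the decoding site, completed the 6 most depleted genes. Their changes in parental cells were −4.78 (SE 1.24), −4.78 (SE 0.616) and −4.42 (SE 0.747). For RPS6 the mean log2 CPM was 3.28 and 3.29 in the library, then −0.45 and −0.61 in the parental and −0.94 and −0.52 in the mutant replicates, so the lines overlapped. Leaving out these 6 and RPL39L, RPS24 and RPS27L, the members lay between −4.38 and −2.43. RPL5 and RPL11, which carry the 5S RNA, were within that series at −3.98 (SE 0.567) and −3.95 (SE 0.794). RPS19, often mutated in Diamond-Blackfan anaemia, was at −4.28 (SE 0.481).

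At the other end, RPL37A, RPS10 and RPS25 were the least depleted of the 50 members that remain without RPL39L, RPS24 and RPS27L. RPL37A went from 3.39 and 3.40 in the library to 0.88 and 0.98 in the parental and 0.87 and 1.12 in the mutant replicates, a change of −2.43 (SE 0.241) and −2.36 (SE 0.278), with all 10 guides called down in parental cells. RPS10, near the entry of the messenger RNA channel, changed by −2.53 (SE 0.560) and −2.75 (SE 0.619). RPS25, which is known for its use by viral internal ribosome entry sites, changed by −2.54 (SE 0.324) in parental and −3.41 (SE 0.607) in SETD2-mutant cells. Among these 50 genes, 463 of 496 guides were called down in parental and 466 in SETD2-mutant cells, while 4 and 2 were called up.

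The 3 genes that stood apart did so in different ways. RPS24, a small subunit gene also mutated in Diamond-Blackfan anaemia, was not called by rank aggregation in either line. With limma on gene means, which called 31.4% of all genes depleted in parental and 38.1% in SETD2-mutant cells, it was depleted in both (adjusted p = 0.00953 and 0.00557). Its mean log2 CPM was 3.45 and 3.42 in the library, then 3.16 and 2.90 in the parental and 2.95 and 3.04 in the mutant replicates, a change of −0.42 (SE 0.590) and −0.45 (SE 0.532). The lines overlapped, and all 4 cell samples lay below the library. The mean hides 1 guide that was lost and 9 that were not. The lost guide had 443 and 396 counts in the library, then 12 and 6 in the parental and 8 and 11 in the mutant replicates. The other 9 guides lay between −0.86 and 1.01 in parental cells, where 1 was called down and 2 up. The lost guide ranks with the guides of the depleted genes, at −5.49 in parental cells and −5.13 in SETD2-mutant cells.

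RPS27L showed the opposite shape in parental cells. Its 10 guides lay close together, between −1.19 and −0.35, with the smallest spread over guides of all members (SD 0.251), and 9 of the 10 were called down. The mean log2 CPM was 4.31 and 4.27 in the library, then 3.39 and 3.39 in the parental and 3.72 and 3.65 in the mutant replicates. The gene was depleted in parental cells (−0.91, SE 0.079, adjusted p = 7.23e-05 by edgeR and rank aggregation) and was not called by that test in SETD2-mutant cells (−0.59, SE 0.224, adjusted p = 0.875). There 5 guides were called down and the spread was wider (SD 0.708, from −1.64 to 0.35). Both SETD2-mutant samples lay above both parental samples, but rank aggregation did not call the difference between the lines (0.32, SE 0.198, adjusted p = 0.480 for enrichment). Without SETD2-mutant replicate 2 it was called, at an adjusted p of 0.0290. Other methods called more: limma on gene means and edgeR on summed counts called RPS27L depleted in SETD2-mutant cells (adjusted p = 0.000120 and 0.000208), where they called 38.1% and 32.7% of all genes depleted. Both also called it enriched between the lines (adjusted p = 0.00804 and 0.00285). In parental cells the call was lost when rank aggregation used a rank share limit of 0.1 (adjusted p = 0.380).

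RPL39L had the change nearest to 0. Its mean over 24 guides was 3.48 and 3.47 in the library, then 3.17 and 3.16 in the parental and 3.16 and 3.04 in the mutant replicates, with a change of −0.30 (SE 0.240) and −0.33 (SE 0.283). Of its 24 guides, 5 were called down and 6 up in parental cells, where 21.2% and 18.9% of all guides were, and 7 down and 7 up in SETD2-mutant cells, where 23.8% and 22.1% of all guides were. These counts were near the shares over all guides. Rank aggregation did not call the gene in either line, and limma on gene means called it depleted in both (adjusted p = 0.00481 and 0.00172). The 5 guides called down in parental cells also ended low in SETD2-mutant cells. For example, 1 of them had 447 and 398 counts in the library, then 71 and 73 in the parental and 40 and 44 in the mutant replicates. Another 2 had nearly equal counts in all 6 samples: 509 against 519 and 453 against 456 in the library, 163 against 164 and 111 against 110 in parental cells, and 178 against 180 and 185 against 185 in SETD2-mutant cells. A chi-square test of these counts gave 0.056 on 5 degrees of freedom, the lowest of 2586 guide pairs within the members, whose median was 21 per degree of freedom. The pair differed by less than the sampling noise and may be 1 guide listed under 2 IDs. Counted once, the change of RPL39L was −0.23 (SE 0.241, 23 guides) in parental cells.

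**Figure D2:**
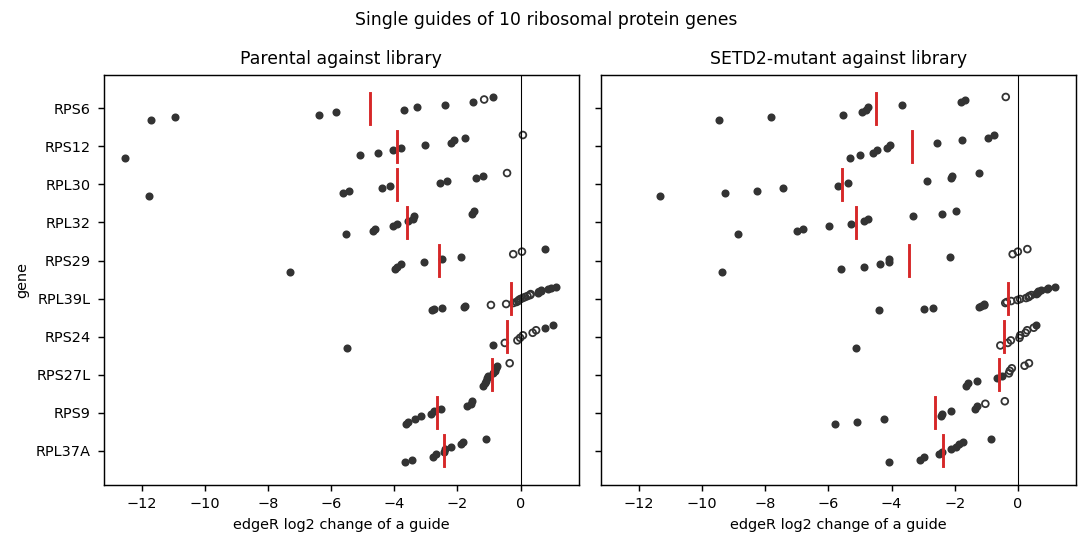
Single guides of 10 ribosomal protein genes (y axis) by their edgeR log2 change from the library (x axis) in parental cells (left) and SETD2-mutant cells (right). Filled points are guides called at an adjusted p under 0.05, open points are not called, and red bars are the means over guides. The 10 guides of RPS27L cluster in parental cells, and RPS24 has 1 guide near −5 with 9 near 0.

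Guides of 1 ribosomal gene spread widely. Parental cells had a median SD over guides of 1.87 and SETD2-mutant cells one of 2.15, beside 1.22 and 1.37 in the 651 other genes that were depleted in parental cells and 1.49 and 1.54 in the other essential genes. With a prior count of 2 the medians were 1.61 and 1.84, against 1.21 and 1.36 in the 651 genes. The largest spreads were those of RPS6 (SD 3.92), RPS12 (3.39) and RPL30 (3.29) in parental cells. These came with guides that ended at 0, whose fold depends on the prior count. The smallest after RPS27L were those of RPL37A (0.763) and RPS9 (0.812), which lines the messenger RNA entry.

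Guides that ended at 0 in both samples of one line were mostly present in the other. Of 12 ribosomal guides at 0 in both parental samples, 11 had counts in a SETD2-mutant sample. Of 11 at 0 in both SETD2-mutant samples, 10 had counts in a parental sample. A guide of RPS12 had 848 and 746 counts in the library, then 0 and 0 in the parental and 34 and 42 in the mutant replicates. A guide of RPS6 had 284 and 256, then 0 and 0, then 7 and 8. In RPL30 the order was the reverse for 1 guide, with 365 and 331 counts in the library, then 2 and 13 in the parental and 0 and 0 in the mutant replicates. These 3 guides were picked for counts at 0 in one line and counts in the other, so the lack of overlap follows from the choice. The same holds in part for the counts of guides above, and guides of other genes were not counted in this way.

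Some guides were not lost. In parental cells 76 of the 540 guides (14.1%) had a change above −1, beside 26.8% of the guides of other depleted genes and 11.9% of those of the other essential genes. Of the 53 genes, 20 had no such guide, 19 had 1, 9 had 2, and RPS20 and RPS29 had 3. The remaining ones belonged to RPS27L with 5, RPS24 with 9 and RPL39L with 19. RPS29 is an example of a split gene: 3 of its guides kept 613 and 561, 1117 and 1051, and 770 and 886 counts in parental cells, from 777 and 649, 671 and 635, and 894 and 775 in the library, while the gene as a whole fell by 2.59 (SE 0.760). To compare the lines, parental cells were set against library replicate 1 and SETD2-mutant cells against library replicate 2. On that scale 71 guides were above −1 in parental and 70 in SETD2-mutant cells, and 53 were above in both, 74.6% and 75.7% of each list. Without RPL39L, RPS24 and RPS27L the counts were 39, 37 and 23, or 59.0% and 62.2%, spread over 18 genes. This overlap was not computed for guides of other genes, so it cannot be read as particular to ribosomal guides.

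Large and small subunit genes were both lost, with the large subunit lower by the median. The median change in parental cells was −3.62 for the large and −3.30 for the small subunit, with 27 of 28 and 24 of 25 genes depleted. In SETD2-mutant cells the medians were −4.46 and −3.81, with 27 and 23 depleted. The large subunit was thus lower by 0.32 in parental and 0.65 in SETD2-mutant cells. By sample, on the scale with a prior count of 2, the large minus small difference was −0.11 and −0.14 in the parental and −0.49 and −0.56 in the mutant replicates. Genes are not replicates, so no test was made.

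The guide IDs carry a class name whose meaning is not stated, and class and subunit go together. The CTRLe class held 41 members (27 large, 14 small), the DDR class held 11, all of the small subunit, and the CTRL class held RPL39L alone. Small subunit genes had a parental median of −3.78 in the CTRLe class and −2.59 in the DDR class. Their SETD2-mutant medians were −4.32 and −3.41. Within the CTRLe class the large minus small difference was 0.16 in parental cells, which is of the opposite sign, and −0.20 in SETD2-mutant cells. The classes also differed in the library, with median log2 CPM of 3.34 (large) and 3.30 (small) in the CTRLe class and 4.29 in the DDR class. Guides at 0 in SETD2-mutant replicate 1 numbered 32 of 266, 23 of 140 and 3 of 110 in the same order. For members outside the CTRLe class, subunit and guide class cannot be told apart. Genes of other function in the CTRLe class numbered 5, all depleted in parental cells with a median of −3.50, and 99 of 187 were depleted in the DDR class, with a median of −0.96.

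**Figure D3:**
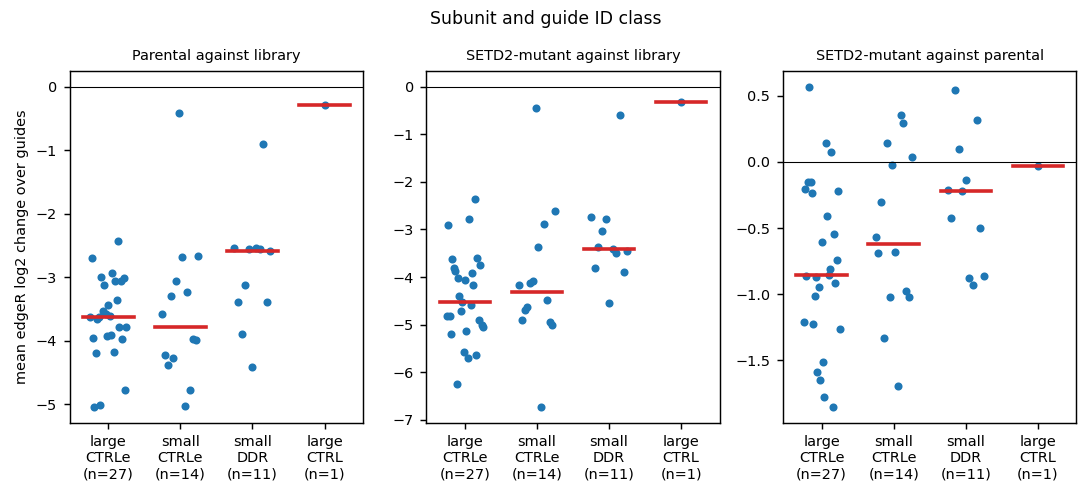
Mean edgeR log2 change over guides (y axis) of each ribosomal protein gene (points), by subunit and guide ID class (x axis), for the 3 comparisons, with red bars at the medians. In parental cells the small subunit genes of the DDR class lie above those of the CTRLe class (medians −2.59 and −3.78), and the large subunit genes of the CTRLe class have a median of −3.62. The y axes of the panels differ.

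The comparison between the lines asked whether SETD2-mutant cells lost these genes more or less than parental cells. The median member was lower in SETD2-mutant cells, and by rank aggregation RPL32 alone was called. The median change from parental to SETD2-mutant cells was −0.61, beside −0.04 over all genes, −0.20 over the other essential genes, −0.08 over the 651 other genes depleted in parental cells and −0.29 over the 592 other genes depleted in SETD2-mutant cells. Of the 53 genes, 43 were below 0 and 10 above, beside 4002 and 3088 of all 7090 genes. Of the 43 other essential genes, 32 were below 0 and 11 above. By rank aggregation 1 was depleted and 0 were enriched, against 1.3% and 1.04% of all genes. At an unadjusted p under 0.05 by the same test the counts were 8 and 3 of 53. Over all 7090 genes they were 534 and 485, and over the 43 other essential genes 11 and 2. Both SETD2-mutant samples lay below both parental samples for 36 members, against 38.9% of all genes, and above for 4, RPS16, RPS19 and RPS27L among them, against 26.9%. Of the 43 other essential genes, 21 were below and 3 above. Single guides were called down for 117 of 540 (21.7%), against 12.8% of all guides, and up for 47 (8.70%), against 11.5%. The share called down was 20.9% for the other essential genes and 23.8% for the other genes depleted in SETD2-mutant cells.

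Tests that use the mean or sum over guides called more genes here, and more of all genes. With limma on gene means 31 members were depleted and 2 enriched, against 22.1% and 12.6% of all genes. With summed counts 21 were depleted and 8 enriched, against 21.2% and 20% of all genes. The size of the shift depended on scaling and on single libraries. Where SETD2-mutant changes were scaled so that the other essential genes dropped out equally in both lines, by a factor of 0.922, the members' median was −0.29, 34 were below 0 and none was called (RPL32 at an adjusted p of 0.319). With that scaling 3942 of all genes tested and 21 of the 43 other essential genes were below 0. The median was −1.01 without SETD2-mutant replicate 2 and −0.24 without parental replicate 1. Without SETD2-mutant replicate 1, which had the fewest counts and the most guides at 0, it was −0.72.

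**Figure D4:**
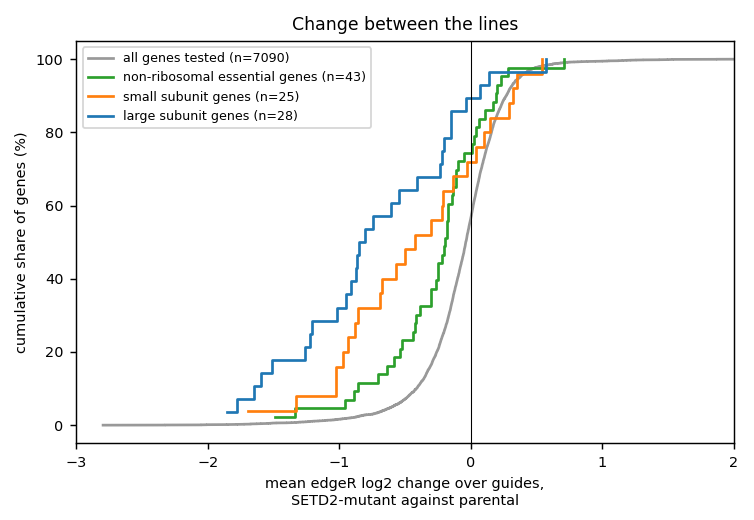
Cumulative share of genes (y axis, percent) by mean edgeR log2 change over guides from parental to SETD2-mutant cells (x axis, drawn from −3 to 2). Lines stand for all genes tested, 43 non-ribosomal essential genes, and small and large subunit genes. The median is −0.83 for large and −0.42 for small subunit genes, −0.20 for the other essential genes and −0.04 for all genes.

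RPL32 (chromosome 3, 12834485 to 12841582) was the member called between the lines. Its mean log2 CPM was 3.24 and 3.24 in the library, then −0.19 and −0.39 in the parental and −1.63 and −1.49 in the mutant replicates. The lines did not overlap, which follows in part from the choice of the gene by this same comparison. The change was −1.51 (SE 0.644, adjusted p = 0.0223 by edgeR and rank aggregation). Of its 10 guides, 8 were lower, with 6 called down and 1 called up. A guide that was lower had 114 and 113 counts in parental and 5 and 9 in SETD2-mutant cells. The guide called up had 14 and 4 counts in parental and 59 and 29 in SETD2-mutant cells. The call was lost without SETD2-mutant replicate 2 (adjusted p = 0.210), without parental replicate 1 (0.0814) and without parental replicate 2 (0.0943). It was also lost in a fit of the 4 cell samples alone (0.410), with a rank share limit of 0.1 (0.966) and with dummyguide scaling (0.0533). Over 22 alternatives the call was kept in 15 and lost in 7, and some of the 15 reused the main p-values. It was kept with DESeq2 per guide (0.0478), limma on gene means (0.000222) and edgeR on summed counts (0.000684). The last 2 called 22.1% and 21.2% of all genes depleted.

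RPL38, RPL34, RPS4X and RPL30 had the lowest changes between the lines. None was called by rank aggregation, while limma on gene means (adjusted p = 0.00467, 0.000709, 0.00161 and 0.00836) and edgeR on summed counts (0.00853, 0.00104, 0.00470 and 0.00343) called all 4 depleted. RPL38, known for its part in the translation of Hox messenger RNAs, was at −1.85 (SE 0.776). Its mean log2 CPM was −0.61 and −0.48 in the parental and −2.41 and −1.62 in the mutant replicates, from 3.18 and 3.08 in the library. RPL34 was at −1.78 (SE 0.631), from −0.72 and −0.34 in parental cells to −1.85 and −1.80. RPS4X was at −1.70 (SE 0.455) and RPL30 at −1.65 (SE 0.707). Without SETD2-mutant replicate 2, RPL38 was at −3.82 and RPL30 at −3.30. In these 4 genes both SETD2-mutant samples lay below both parental samples, as they did for 38.9% of all genes. The 4 were picked as the lowest in this same comparison, so the lack of overlap follows in part from the choice.

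At the upper end were RPL13, RPS12 and RPS27L, at 0.57 (SE 0.363), 0.54 (SE 0.941) and 0.32 (SE 0.198), with none called by rank aggregation. Without SETD2-mutant replicate 2, RPL13 was at −0.65, the opposite sign, and RPS12 at 0.09. Without parental replicate 1, RPL13 was at 1.19. The guide of RPS12 at 0 in parental cells, described above, enters its mean, and the median of its guides was −0.09. Summed over its guides, RPS12 was lower in SETD2-mutant cells (−0.32, adjusted p = 0.0169 by edgeR on summed counts), the opposite sign. By subunit, the median change was −0.83 for the large and −0.42 for the small subunit, and −0.85 and −0.62 within the CTRLe class. For the large subunit 22 of 28 genes had both SETD2-mutant samples below both parental samples and 0 above. For the small subunit the counts were 14 and 4 of 25, and over all genes the shares were 38.9% and 26.9%. Within the CTRLe class 21 of 27 large and 8 of 14 small subunit genes were below, with 0 and 2 above. In the DDR class 6 of 11 were below and 2 above. The large minus small difference of −0.41 was −0.21 without SETD2-mutant replicate 2, −0.26 without parental replicate 1 and −0.23 without parental replicate 2.

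Genes that build, use or signal to ribosomes were followed in lists. Of 13 ribosome biogenesis genes, 11 were depleted in each line, against 9.9% (parental) and 9.06% (SETD2-mutant) of all genes. The medians were −1.98 (parental) and −2.28 (SETD2-mutant). Between the lines 0 were called, which is near the shares of all genes (1.3% depleted and 1.04% enriched). PELP1, which acts in large subunit maturation, changed by −3.04 (SE 1.03) in parental cells. NOC4L, of the small subunit processome, changed by −2.88 (SE 0.620), and FBL, the ribosomal RNA methyltransferase fibrillarin, by −2.52 (SE 0.650). Of 6 translation factors, 6 were depleted in parental and 4 in SETD2-mutant cells, against the same shares of all genes. EIF4G1 (−1.97, adjusted p = 0.324 by edgeR and rank aggregation) and EIF4E (−1.72, adjusted p = 0.0823) missed the threshold in SETD2-mutant cells. Between the lines 0 of the 6 were called. EEF2, which moves the ribosome along the messenger RNA, changed by −3.33 (SE 0.423) and −4.37 (SE 0.548). EIF5B, which joins the subunits, changed by −2.61 (SE 0.539) in parental cells. The median of the translation factors was −2.34 and −2.55, so both lists lay nearer to 0 than the ribosomal proteins.

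Fewer signalling genes were called. Of 16 S6 kinase and translation signalling genes, 3 were depleted in parental cells: RPTOR at −2.23 (SE 0.388) and MTOR at −1.64 (SE 0.311), both of mTOR complex 1, and RPS6KA4 at −0.45 (SE 0.145). Over all genes 9.9% were depleted there. In SETD2-mutant cells 3 were depleted and 2 enriched, against 9.06% and 1.13% of all genes. The enriched genes were RPS6KA3 (0.47, SE 0.162) and RPS6KA6 (0.53, SE 0.117). The median of the list was 0.09 in parental cells.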

How the data were processed

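Guide amplicons from genomic DNA were read in 6 samples. The table deposited by the authors gives unscaled counts for each guide. MAGeCK and hg38 are named in the submitters' processing notes without a role. Columns were matched to samples by name. Guides were kept at a mean library count of at least 30, scaled with TMM factors and fitted by group over all 6 samples with edgeR 4.0.16 in R 4.3.3 (glmQLFit, robust; glmQLFTest). Gene p-values came from robust rank aggregation, rewritten in Python, with a rank share limit of 0.25 and 4000000 seeded null draws for genes with 10 guides. P-values were adjusted by Benjamini-Hochberg over 7090 genes in each direction. The code was tested on simulated data. Levels per sample are log2 CPM with a prior count of 2. Guide sequences were not analysed here. The members, lists and the rule for named genes (extremes of each comparison, of guide spread, and every exception to the calls) were chosen with earlier results of these data known. Some genes that this rule names are left out of the text. RPL5, RPL11, RPS19, RPS16 and RPS29 were added after their values were seen. Alternatives used DESeq2 1.42.0, limma 3.58.1, other scalings, filters, leave-one-out fits and a replicate block. The correlation of replicate differences between groups was −0.005 to −0.003, so equal numbers do not pair samples.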

Additional observations from a re-analysis of the deposited data

Results flagged for a closer look

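RPL32 differed between the lines by the test of that difference itself, with a log2 change of −1.51 from parental to SETD2-mutant cells. It was the member that passed the threshold among 53, and the call did not hold without SETD2-mutant replicate 2 or without either parental replicate.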

How the results depend on the processing

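The count of depleted members was 49 to 53 in parental and 45 to 53 in SETD2-mutant cells over 18 alternatives each. Between the lines it was 0 with a rank share limit of 0.1, dummyguide scaling, equal essential-gene dropout or the 2 groups alone (guides down 48), 31 with limma and 21 with summed counts (enriched 2 and 8), and 0 to 1 when single samples were left out (enriched 0 to 1). The median change in parental cells was −4.30 with dummyguide scaling and −3.42 with the median over guides, and −3.75 to −3.52 leaving out samples. In SETD2-mutant cells it was −4.99, −4.01, −4.13 without RPL39L and RPS27L, −3.93 with a prior count of 2, and −4.71 to −4.07 leaving out samples. Between the lines it was −0.76 with dummyguide scaling, −0.29 with equal dropout, −0.42 with the median over guides, −0.50 with a prior count of 2, and −1.01 to −0.24 leaving out samples.

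The large minus small difference in parental cells was 0.16 in the CTRLe class alone, −0.28 without RPL39L and RPS27L, −0.24 with the median over guides, −0.13 with a prior count of 2 and −0.34 to −0.26 leaving out samples. In SETD2-mutant cells it was −0.20, with a prior count of 2 −0.58, and −0.74 to −0.65 leaving out samples. Between the lines it was −0.23 in the CTRLe class, −0.53 with the median over guides, −0.29 with a prior count of 2 and −0.41 to −0.21 leaving out samples. The guide SD was 1.61 (parental) and 1.84 (SETD2-mutant) with a prior count of 2, 2.21 (SETD2-mutant) with DESeq2, and 1.86 to 2.02 and 2.11 to 2.90 leaving out samples. RPS12 between the lines was −0.32 with summed counts. With a replicate block the depleted counts were 51, 50 and 1 and the difference in parental cells was −0.29. Of the single-gene values, 1237 kept their side of the threshold, 15 lost a call, 24 gained one and 1 reversed. The median over guides, the prior count of 2 and the setting without RPL39L and RPS27L reused the main gene p-values. Values from these settings could neither lose nor gain a call, so the 1237 overstate how far the calls were tried. The prior count, the guide class and the pair counted once were chosen after seeing the data. The causes were not tested, and counts near 0 limit how deep a loss can be read.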
